A study of Mus musculus with 3 samples.

Results

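Chromatin and DNA modifying enzymes were examined in group 2 innate lymphoid cells (ILC2s), lymphocytes of tissues that carry no antigen receptor and secrete type 2 cytokines. The members were taken by name: the deacetylases Hdac and Sirt, the DNA methyltransferases Dnmt, the TET dioxygenases, the acetyltransferases Kat with Crebbp and Ep300, the demethylases Kdm, the histone methyltransferases Kmt, and the Polycomb genes Ezh1, Ezh2, Suz12 and Eed. The rule kept 64 protein-coding genes of 27179 genes in the count table and used no measured value. Kdm5d, on the Y chromosome, was left out by the rule. RNA was sequenced from 3 libraries of sorted ILC2s, which the design text assigns to 3 wild-type mice of the C57BL/6 strain. The sort kept CD45+ cells with CD90.2, CD127 and KLRG1 and removed cells with T cell, B cell, NK cell and myeloid surface markers. The labels name no treatment, tissue, age or sex. The series thus holds 1 group, and the comparisons are between genes within a library and between mice.

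These enzymes write and erase chemical marks on histone tails and on cytosine. Acetyltransferases open chromatin and deacetylases close it, while methyl marks activate or repress according to the residue that carries them. Polycomb repressive complex PRC2 writes a repressive mark on histone H3 that Kdm6a and Kdm6b remove, DNA methyltransferases place methyl groups on cytosine in CG pairs, and TET enzymes oxidise them. In lymphocytes such enzymes take part in fixing cytokine programmes.

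Library totals were 17819551 to 26374248 counts. Levels are given as CPM, the counts per 1000000 counts of a library, with library sizes scaled by the TMM method. A count of 0 allows a level of up to 3 counts, or 0.115 to 0.171 CPM by library, and this floor covers counting error only. All 10 genes of a list of sorting antigens and ILC2 identity genes were detected, with Klrg1 at 1304 ± 234 and Gata3 at 438 ± 76.4 CPM (SD, n = 3). Some markers of other cells were present, and some of their sums were uneven between mice. The summed level of 14 B and plasma cell genes, of which 10 were detected, was 12820, 34740 and 63360 CPM in mice 1, 2 and 3, while Ms4a1 and Pax5 had 0 counts. The summed level of 10 NK cell and ILC1 genes, of which 3 were detected, was 38.5, 258.5 and 82.7 CPM. Of 12 T cell genes 7 were detected, with sums of 1647 to 1805 CPM. Trbc1 and Trbc2 led at 758 and 596 CPM, while Cd4, Cd8a and Cd8b1 had at most 2 counts in a library. Of 12 myeloid genes 6 were detected, with sums of 1840 to 2773 CPM. Cd74 led at 1781 CPM and Lyz2 had 26.2 CPM, while Adgre1, S100a8 and S100a9 had 0 counts. Of 10 gut epithelial genes only Epcam was detected. Fewer cells of a type and less RNA per cell cannot be told apart in such bulk libraries. All values below are mean ± SD over 3 mice unless given per mouse.

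Most of the enzymes were present. Detection was set at 1 CPM or more in all 3 libraries, and 47 of the 64 members met it. The same share over the table was 31.1% of all genes and 38.0% of protein-coding genes, against 73.4% of the members. A further 9 members reached 1 CPM in 2 libraries, 3 in 1 library and 5 in none. No member lacked counts in all 3 libraries. The detected number was 38 at a minimum of 5 CPM and 51 at 0.5 CPM.

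**Figure D1:**
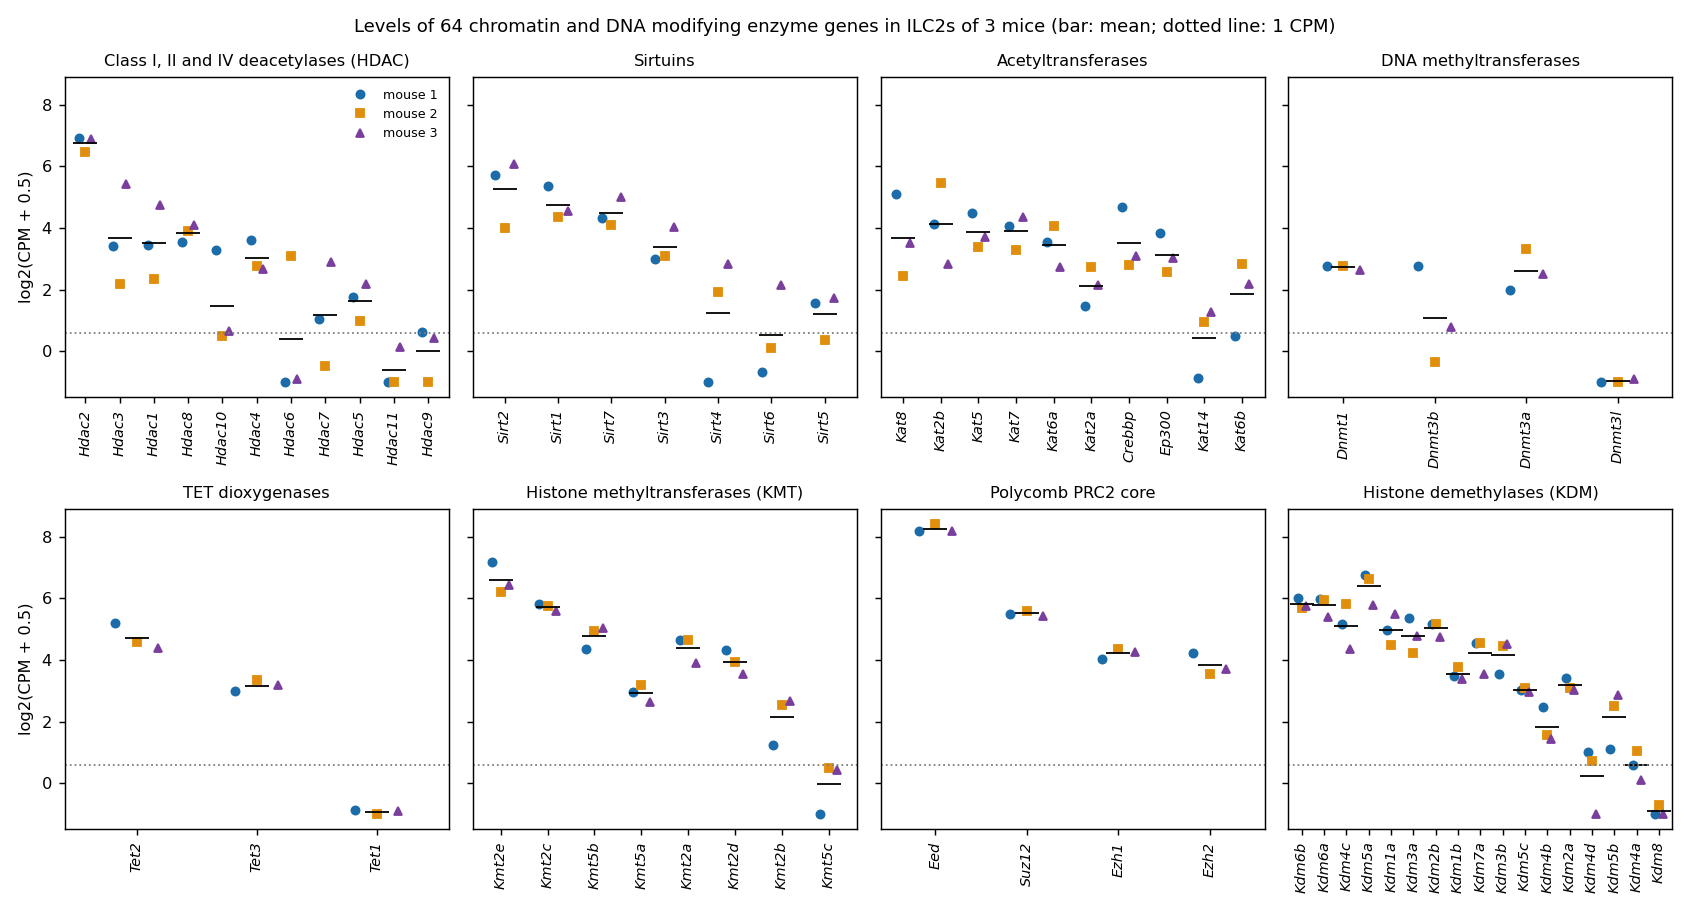
Level of each of the 64 members as log2(CPM + 0.5), in 1 panel per enzyme family, with genes ordered from left to right by mean TPM. Symbols are the 3 mice, bars the mean of the log values and the dotted line 1 CPM; Eed and Hdac2 lie highest, and the members on the right of several panels reach the bottom of the axis in 1 or more mice.

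Levels of different genes were compared per length, as TPM, which are counts divided by the summed exon length and scaled to the same total in each library. Immunoglobulin and J chain genes, many of them short, took 6.00%, 21.2% and 34.4% of that total in mice 1, 2 and 3, so TPM rank genes within a mouse and CPM compare mice. The members' median TPM was 2.98, 2.52 and 1.92 in mice 1, 2 and 3, against 0.0225, 0.0439 and 0.144 over all protein-coding genes and 12.6, 8.82 and 9.69 over the detected ones. By mean TPM 12 members lay above 10, 22 above 5 and 45 above 1. Eed headed the order with 154.7 ± 22.8 TPM, at percentile 96.3 of the protein-coding genes, followed by Hdac2 (47.4 ± 12.6) and Kmt2e (19.4 ± 10.3). Of the 63 steps between neighbours in this order only 2, from Eed to Hdac2 and from Hdac2 to Kmt2e, had ranges over mice that did not overlap. These ranges include the shift of the immunoglobulin share between mice. By them the positions of most members relative to their neighbours were not separated.

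**Figure D2:**
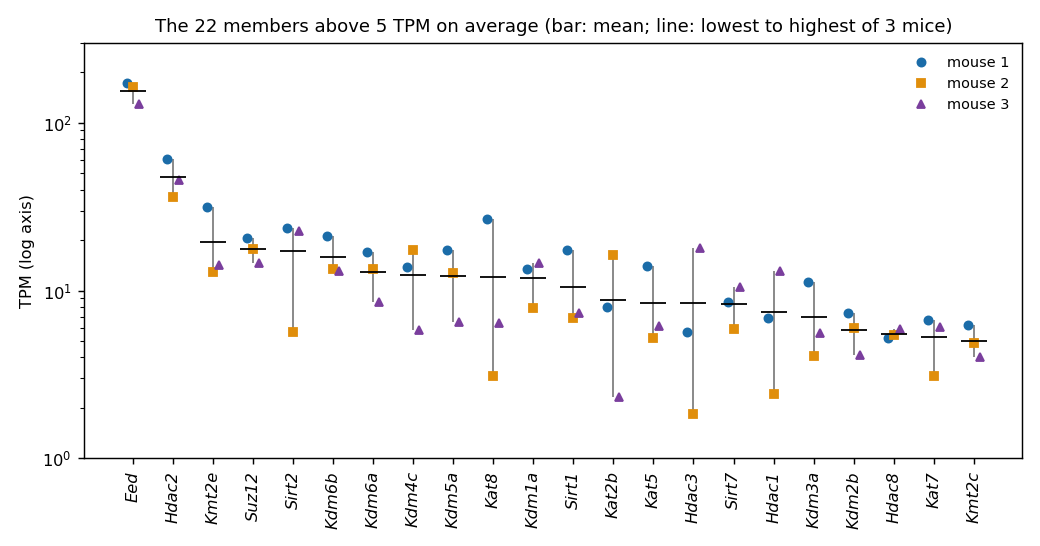
The 22 members above 5 TPM on average, in order of mean TPM on a log axis, with symbols for the 3 mice, bars for the mean and grey lines from the lowest to the highest mouse. Eed (128.8 to 171.6 TPM) stands clear of Hdac2 (36.0 to 60.9 TPM), and from Kmt2e onward the ranges overlap from gene to gene.

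The families that act on cytosine had low medians per length. The median TPM of the 4 DNA methyltransferase genes was 0.751 ± 0.395 and that of the 3 TET genes 0.979 ± 0.0947, against means of 1.08 to 11.4 in the other 6 families. The TET median was the value of Tet3, while Tet2 had 3.15 TPM. Without division by length, as log2(median CPM + 0.5), the DNA methyltransferases stayed lowest at 2.08. The TET genes, at 3.17, were then above the zinc-dependent deacetylases at 2.73. The TET genes and the zinc-dependent deacetylases were not ordered, since the TET median was 1.01, 1.05 and 0.872 TPM in mice 1, 2 and 3, against 1.701, 0.736 and 0.788 TPM for the deacetylases. Dnmt1, which copies methylation to the new strand after DNA replication, had the lowest spread of the tested members relative to genes of its abundance, with 6.31, 6.26 and 5.79 CPM in mice 1, 2 and 3. Dnmt3a, which places methylation on unmethylated sites, had 3.44, 9.56 and 5.25 CPM and was highest in mouse 2. Dnmt3b, of like activity, had 6.31, 0.284 and 1.23 CPM, and its mouse 2 value rests on 5 counts. It was highest in mouse 1, where Dnmt3a was lowest. Dnmt3l, a cofactor without catalytic activity known from germ cells, had 1 count in mouse 3 and 0 in the others.

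Tet2, which is frequently mutated in blood cancers in humans, led its family with 36.1, 23.5 and 20.3 CPM in mice 1, 2 and 3. Tet3 followed with 7.46, 9.61 and 8.55 CPM, a range narrower than that of Tet2. Tet1 had 1, 0 and 1 counts, which in each mouse was under the 3 counts of the floor. Per length, Tet3 (0.979 TPM) was below Tet2 (3.15 TPM) in 3 of 3 mice, a difference of -1.23 ± 0.52 on the log2(TPM + 0.5) scale that later pair differences also use. Dnmt1 (1.61 TPM) was above Dnmt3a (0.685 TPM) in 3 of 3 mice, by 0.85 ± 0.46. That order depended on length. Without division by length the difference was 0.11 ± 0.68, with Dnmt3a higher in mouse 2. With exon lengths of the GENCODE basic set it was 0.52 ± 0.49. Dnmt3a against Dnmt3b (1.10 TPM) gave -0.07 ± 1.58, with 2 mice on one side and 1 on the other, so these genes were not ordered. Tet2 exceeded Tet1 in each mouse, and no fold is given for Tet1 at the floor.

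Cytosine in CG pairs is the substrate of these enzymes, and the start regions of their own genes differ in how many such pairs they hold. RefSeq windows (GRCm38.p6) of 250 bases before to 50 after the annotated start were matched to 53 of the 64 members, which have 78 windows in all. 4 are shown, for the highest member and for 3 genes of the cytosine families that are present or nearly absent, 5′ to 3′ on the gene's strand, with each CG pair in capitals. The windows are chr3:133544341-133544640 (minus strand) for Tet2, chr10:62887275-62887574 (minus) for Tet1, chr10:78042037-78042336 (plus, the most upstream of 3) for Dnmt3l and chr7:89980927-89981226 (minus) for Eed. On the minus strand the Tet2 and Tet1 genes begin at 133545136 and 62887469, upstream of the starts that these windows use.
Tet2: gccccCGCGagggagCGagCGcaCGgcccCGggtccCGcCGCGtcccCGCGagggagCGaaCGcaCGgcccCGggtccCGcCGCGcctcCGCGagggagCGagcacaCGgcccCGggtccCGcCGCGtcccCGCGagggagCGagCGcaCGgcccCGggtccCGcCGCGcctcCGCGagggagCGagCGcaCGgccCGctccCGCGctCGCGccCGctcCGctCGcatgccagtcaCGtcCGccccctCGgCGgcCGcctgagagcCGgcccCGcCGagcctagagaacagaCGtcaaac
Tet1: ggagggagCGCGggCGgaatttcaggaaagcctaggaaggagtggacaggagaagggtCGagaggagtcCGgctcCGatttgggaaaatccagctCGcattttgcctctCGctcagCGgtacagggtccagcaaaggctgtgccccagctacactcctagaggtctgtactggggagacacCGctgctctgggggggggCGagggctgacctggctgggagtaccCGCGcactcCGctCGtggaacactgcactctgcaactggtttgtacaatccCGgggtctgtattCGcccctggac
Dnmt3l: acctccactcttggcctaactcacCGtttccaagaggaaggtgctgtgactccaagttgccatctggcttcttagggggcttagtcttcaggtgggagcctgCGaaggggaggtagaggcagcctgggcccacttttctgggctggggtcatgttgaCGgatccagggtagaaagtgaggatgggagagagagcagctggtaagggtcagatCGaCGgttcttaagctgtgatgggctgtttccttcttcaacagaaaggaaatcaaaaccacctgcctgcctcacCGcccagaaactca
Eed: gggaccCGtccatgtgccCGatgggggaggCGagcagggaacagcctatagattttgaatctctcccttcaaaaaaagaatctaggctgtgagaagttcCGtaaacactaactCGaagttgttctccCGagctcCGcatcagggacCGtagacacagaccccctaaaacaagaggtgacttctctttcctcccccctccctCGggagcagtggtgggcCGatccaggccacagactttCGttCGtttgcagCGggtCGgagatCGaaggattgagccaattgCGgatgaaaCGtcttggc
The Tet2 window held 57 CG pairs and those of Tet1 and Eed 17 each, while the Dnmt3l window held 6. Tet1, with 2 counts in all, and Eed, the highest member, thus had the same number. Windows with at least 55% G and C and an observed over expected CG ratio of at least 0.65 were called CG-rich. This was so of 34 of 54 windows of detected members (63.0%) and of 11 of 24 windows of the others (45.8%). Over all protein-coding genes of the table the shares were 60.0% of 8242 windows of detected genes and 25.1% of 12197 windows of the others, and over all windows 28.1%. The share among detected members was near that of other detected genes. The windows give sequence only, and no methylation was measured.

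Polycomb PRC2 was the family with the highest median, 11.4 ± 1.95 TPM, and all 4 genes were detected. Eed, the subunit that binds the repressive mark itself, had 289.9, 342.7 and 289.6 CPM in mice 1, 2 and 3, with all mice close together. The kit does not mark strand, so its reads cannot be separated from those of E230029C05Rik, a gene of the opposite strand that shares 6.82% of its exon length and had only 1.33 ± 1.12 CPM. Suz12, the scaffold subunit, had 44.7, 48.1 and 42.6 CPM, also close together. The catalytic subunits were lower. Ezh1 had 15.9, 20.1 and 18.6 CPM and Ezh2 18.3, 11.3 and 12.7 CPM, and their ranges overlapped. Ezh1, the form known from resting cells, had 4.68 ± 0.375 TPM and Ezh2, the form linked to cell division, 4.17 ± 1.77 TPM. The difference was 0.21 ± 0.48 on the log2 scale, with Ezh1 higher in mice 2 and 3 only (exact sign-flip p = 0.5), and it turned to -0.67 with exon lengths of the GENCODE basic set.

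Among the 8 histone methyltransferases 7 were detected, with a median of 2.54 ± 0.776 TPM. Kmt2e, a member of the MLL family for which methyltransferase activity has not been established, led with 144.4, 73.4 and 86.8 CPM in mice 1, 2 and 3 and was highest in mouse 1. It shares 9.31% of its exon length with Srpk2 on the opposite strand, which had 15.3 ± 5.45 CPM. Kmt2c, which places the activating mark of enhancers, had 55.7, 54.0 and 47.9 CPM, with all mice close together. Its paralogue Kmt2d had 19.4, 14.7 and 11.3 CPM, lower in every mouse. Kmt2d (1.51 TPM) was below Kmt2c (5.04 TPM), with a difference of -1.49 ± 0.16 that had the smallest SD among the 19 pairs compared.

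Kmt2a, which marks promoters and is known from leukaemias in humans, had 24.4, 24.9 and 14.6 CPM in mice 1, 2 and 3. Kmt2b, its closest paralogue, had 1.85, 5.29 and 5.87 CPM and was lowest in mouse 1. Kmt2a (2.51 TPM) exceeded Kmt2b (0.829 TPM) in 3 of 3 mice, by 1.16 ± 0.83. Of the histone H4 enzymes, Kmt5a, which places the first methyl group, had 7.28, 8.70 and 5.68 CPM. Kmt5b, which adds further groups, had 20.2, 30.3 and 32.7 CPM, and Kmt5c, its paralogue, 0, 0.91 and 0.844 CPM, so that Kmt5c alone of this family was not detected. Kmt5b was higher in each mouse, and no fold is given because Kmt5c had 0 counts in mouse 1.

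Among the 17 demethylases 14 were detected, with a median of 3.74 ± 0.919 TPM. The enzymes that remove the PRC2 mark were among the 12 members above 10 TPM. Kdm6b had 64.5, 50.96 and 53.7 CPM in mice 1, 2 and 3, and Kdm6a, which lies on the X chromosome, 62.5, 61.8 and 42.0 CPM. Their ranges overlapped. Per length Kdm6b had 15.9 ± 4.49 and Kdm6a 12.96 ± 4.21 TPM, a log2 difference of 0.30 ± 0.30 that was negative in mouse 2 (exact p = 0.5) and -0.12 with lengths of the basic set. Kdm5a, which removes the activating mark of promoters, had 108.4, 98.6 and 54.3 CPM and was lowest in mouse 3. Kdm5c, an X-linked paralogue of the same activity, had 7.63, 8.13 and 7.29 CPM, and Kdm5b 1.68, 5.18 and 6.75 CPM. Kdm5a (12.2 TPM) exceeded Kdm5c (2.09 TPM) in 3 of 3 mice, by 2.20 ± 0.50.

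Kdm1a (LSD1), the flavin-dependent demethylase of the CoREST complex, had 30.7, 22.2 and 44.4 CPM in mice 1, 2 and 3 and was highest in mouse 3. Kdm1b had 10.8, 13.1 and 9.97 CPM, but shares 9.19% of its exon length with Dek on the opposite strand, at 230.3 ± 22.7 CPM, and its value is uncertain. Kdm1a (11.95 TPM) exceeded Kdm1b (3.97 TPM) by 1.45 ± 0.65. Kdm2b, which brings a form of Polycomb complex PRC1 to CG-rich DNA, had 35.2, 35.6 and 26.4 CPM. Kdm2a, its paralogue, had 10.2, 8.13 and 7.63 CPM. Kdm2a (1.18 TPM) was below Kdm2b (5.82 TPM) in 3 of 3 mice, a difference of -1.90 ± 0.18.

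The Kdm3 and Kdm4 enzymes remove repressive histone H3 methylation. Kdm3a had 40.8, 18.3 and 27.0 CPM in mice 1, 2 and 3 and was highest in mouse 1, whereas Kdm3b, at 11.1, 21.4 and 22.3 CPM, was lowest there. Kdm3b shares 24.6% of its exon length with Gm26538 on the opposite strand. Kdm3a (6.97 TPM) exceeded Kdm3b (2.42 TPM) in 3 of 3 mice, by 1.26 ± 0.98. Kdm4c had 35.3, 55.8 and 19.8 CPM, the highest of its group, against 3.25 ± 1.62 for Kdm4b and 1.06 ± 0.510 for Kdm4a. Kdm4a was under 1 CPM in mouse 3. Kdm4d had 1.54, 1.14 and 0 CPM. Kdm7a, which also acts on repressive marks, had 19.04 ± 6.79 CPM. Kdm8 had only 2 counts, both in mouse 2.

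Of the 10 acetyltransferases 8 were detected, with a median of 2.71 ± 1.02 TPM, and several differed widely between mice, though none passed the test of spread given below. Kat8 (MOF), a histone H4 acetyltransferase, had 34.2, 4.89 and 10.9 CPM in mice 1, 2 and 3 and was highest in mouse 1. Kat2b (PCAF) had 17.1, 43.2 and 6.64 CPM and was highest in mouse 2. Annotated pseudogene copies of Kat2b, Kat6b, Dnmt3a and Dnmt3l could share reads with them, and their values are uncertain to that extent. This list may be incomplete, so other members are not shown to be free of that limit, and no count was corrected for such copies. The paralogue Kat2a (GCN5) had 2.29, 6.14 and 3.99 CPM. Kat2b (8.83 TPM) exceeded Kat2a (2.22 TPM) in 3 of 3 mice, by 1.48 ± 1.11, but in mouse 3 by only 0.20.

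Crebbp and Ep300, the coactivators that acetylate histone H3 at enhancers, were both highest in mouse 1. Crebbp had 25.1, 6.48 and 8.13 CPM in mice 1, 2 and 3, and Ep300 13.7, 5.46 and 7.59 CPM. Crebbp (2.03 TPM) was above Ep300 (1.26 TPM) by 0.37 ± 0.38, in 3 of 3 mice but within the spread between them. Kat6a (MOZ) had 11.3, 16.3 and 6.17 CPM and Kat6b (MORF) 0.927, 6.71 and 4.03 CPM. Kat6a (2.39 TPM) exceeded Kat6b (0.420 TPM) by 1.62 ± 0.77. Kat5 (TIP60) had 14.8 ± 6.10 CPM, with 12.1% of its exon length shared with Rnaseh2c at 60.6 ± 6.32 CPM. Kat7 (HBO1) had 15.1 ± 5.32 CPM. Kat14, a subunit of the ATAC complex, had 0.0441, 1.42 and 1.92 CPM and was under 1 CPM in mouse 1.

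The zinc-dependent deacetylases had a low median of 1.08 ± 0.543 TPM, with 6 of 11 detected, yet included the second most abundant member. Hdac2, a class I enzyme of the NuRD, Sin3 and CoREST complexes, had 120.1, 88.2 and 119.1 CPM in mice 1, 2 and 3. Hdac1, its close paralogue, had 10.5, 4.55 and 26.7 CPM, and every mouse was below the lowest Hdac2 value. Hdac1 (7.497 TPM) was below Hdac2 (47.4 TPM) in 3 of 3 mice, a difference of -2.81 ± 0.97. Hdac3, the catalytic subunit of the NCoR complexes, had 10.2, 4.10 and 42.6 CPM. Both Hdac1 and Hdac3 were highest in mouse 3 and lowest in mouse 2. Hdac8, on the X chromosome, was even, at 11.2, 14.5 and 16.7 CPM.

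Class II and class IV deacetylases were lower per length on average than those of class I, with exceptions in single mice. Hdac10 in mouse 1 (6.27 TPM) was above Hdac3 (5.67 TPM) and Hdac8 (5.25 TPM), and Hdac6 in mouse 2 (2.52 TPM) was above Hdac1 (2.41 TPM) and Hdac3 (1.85 TPM). Hdac4, a class IIa enzyme that moves between cytoplasm and nucleus, had 11.9, 6.37 and 5.91 CPM in mice 1, 2 and 3, with 22.4% of its exon length shared with Gm26720 on the opposite strand. Hdac7 had 1.59, 0.227 and 6.98 CPM. Hdac7 (0.784 TPM) against Hdac4 (1.02 TPM) gave -0.41 ± 1.22, with Hdac7 higher in mouse 3 only. Hdac5 had 2.80 ± 1.29 CPM, Hdac9 1.06, 0 and 0.844 CPM, and Hdac10, a polyamine deacetylase, 9.35, 0.91 and 1.07 CPM. Hdac6, the X-linked deacetylase of tubulin, had 0, 141 and 1 counts and thus 8.02 CPM in mouse 2. The sum of the NK cell and ILC1 list was also highest in mouse 2, where Gzma alone gave 228.7 of its 258.5 CPM. Prf1, Klrb1c and Xcl1 were highest in mouse 2 too, but Gzmb was lowest there and Ncr1 was highest in mouse 3. Eomes and Tbx21 had 1 count each, in mouse 2, and Klra4 and Klra8 had 0 counts. The gut epithelial genes Krt18 (0, 74 and 0 counts) and Vil1 (0, 32 and 0) had counts in mouse 2 only, whereas Epcam was lowest there. Krt8 had 0, 1 and 0 counts, and Lgr5, Muc2, Fabp2, Krt20, Cdx2 and Chga had 0 in all mice. The part of such cells in the Hdac6 value was not tested. Hdac11, the class IV enzyme, had 16 counts in mouse 3 and 0 in the others.

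Of the 7 sirtuins, deacylases that use NAD, 4 were detected, with a median of 3.35 ± 1.16 TPM. Sirt2, mainly cytoplasmic, had 52.1, 15.7 and 66.9 CPM in mice 1, 2 and 3 and was lowest in mouse 2. Sirt1, the nuclear deacetylase, had 40.9, 19.96 and 23.1 CPM, and nucleolar Sirt7 19.5, 16.7 and 31.6 CPM. Sirt7 (8.32 TPM) against Sirt1 (10.5 TPM) gave -0.23 ± 0.73, with Sirt7 higher in mouse 3 only, and 0.14 without mouse 1. Of the mitochondrial forms Sirt3 had 7.54, 8.08 and 16.1 CPM, with 6.998% of its exon length shared with Ric8a and 5.73% with Psmd13. Sirt4 had 0, 3.30 and 6.60 CPM and Sirt5 2.47, 0.796 and 2.80 CPM. Nuclear Sirt6 had 0.132, 0.569 and 3.95 CPM. Sirt4, Sirt6 and Kat14 were lowest in mouse 1 and highest in mouse 3, the order in which the summed B and plasma cell genes also stood. That order held for 9 of the 61 members with over 10 counts in some library (14.8%), against 15.4% of such protein-coding genes, and the other 6 were Hdac8, Sirt3, Kmt2b, Kmt5b, Kdm3b and Kdm5b. The part of such cells in these values was not tested.

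Over the 19 pairs of paralogues, 10 had the first gene higher and 4 the second gene higher in 3 of 3 mice, and 5 were mixed. With 3 libraries the smallest p of an exact two-sided sign-flip test is 0.25. Each pair of 1 direction had that p, or 0.339 after Benjamini-Hochberg adjustment over the 19 pairs, so no pair passed. In 9 of these 14 pairs the mean difference was over 2 times its SD, and 2 of the 9, those of Tet1 and Kmt5c, had a gene at or under the floor. Among the 9 were Hdac1 against Hdac2, Kmt2d against Kmt2c, Kdm2a against Kdm2b, and Kdm5a against Kdm5c.

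**Figure D3:**
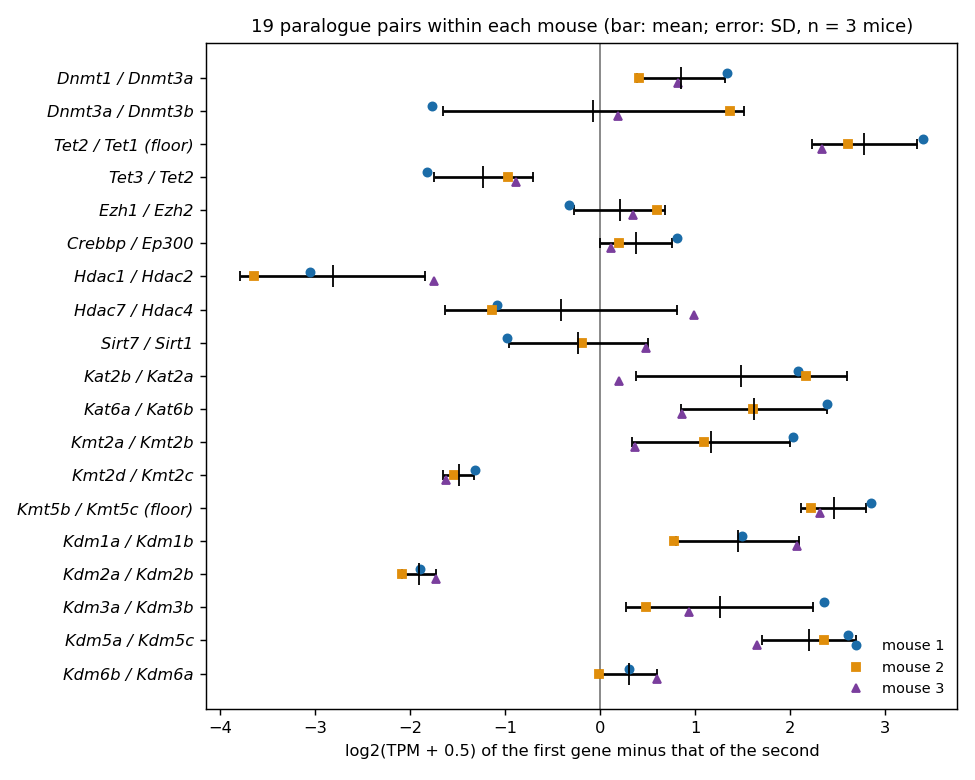
Difference in log2(TPM + 0.5) between the first and the second gene of 19 paralogue pairs, with symbols for the 3 mice and bars for the mean and SD. Hdac1 minus Hdac2 lies between -3.65 and -1.74 in the 3 mice, while the mice of Dnmt3a/Dnmt3b, Ezh1/Ezh2, Hdac7/Hdac4, Sirt7/Sirt1 and Kdm6b/Kdm6a fall on both sides of 0.

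The last comparison asked which members differed between mice beyond other genes of their abundance. The spread of each gene was taken as the quasi-dispersion of an edgeR fit, divided by its trend with abundance, and tested with an upper-tail F test. Of 9175 genes that passed the filter, 0.207% were more variable at a Benjamini-Hochberg adjusted p below 0.05. Of the 64 members 51 passed the filter, and 0 were more variable (edgeR, limma and DESeq2). With 3 libraries the test finds few differences of the size seen among the members, as simulated counts showed, so a count of 0 does not show that the members were even. At an unadjusted p below 0.05 in edgeR there were 5 of the 51 members, against 409 of the 9175 genes tested (4.46%). In limma there were also 5 members, against 438 genes. In edgeR without mouse 1 the count was 6 of 55 members, against 574 of 9841 genes. It was 2 of 54 members against 461 of 9788 genes without mouse 2, and 5 of 52 against 544 of 9366 without mouse 3. The members' median log2 ratio to the trend was -0.45, against -0.42 over all genes tested. The members' median was -2.18 against -1.21 over all genes without mouse 1, and -0.30 against -1.07 without mouse 2, so the position of the members relative to other genes rested on single libraries. The filter needs about 10 counts in each library, so members with low or missing counts in a mouse were not tested. Hdac6, Sirt4, Dnmt3b and Hdac7 were among these. Without the filter all 64 were tested and again 0 were called.

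The 5 largest ratios were those of Hdac3 (2.98, unadjusted p = 0.00867), Sirt2 (2.59), Kat2b (2.47), Hdac10 (2.31) and Kat8 (2.28), with adjusted p of 0.938 for Hdac3 and 0.979 for the others in edgeR. Hdac3, Sirt2, Hdac10 and Kat8 were lowest in mouse 2, where Kat2b was highest. Hdac3 and Sirt2 were highest in mouse 3, and Hdac10 and Kat8 in mouse 1. The lowest ratios were those of Dnmt1 (-7.30), Kdm5c (-6.43), Suz12 (-4.24) and Tet3 (-4.02). The coefficient of variation between mice had a median of 35.7% over the 51 members, against 30.2% over all genes tested and 36.9% in the members' own abundance classes. The highest mouse was at least 4 times the lowest in 15.7% of the tested members, against 12.6% of all genes tested. Of the 61 members with over 10 counts in some library, 6 had 0 counts in another (9.84%), against 15.1% of such protein-coding genes. These 6 were Hdac6, Hdac9, Hdac11, Sirt4, Kmt5c and Kdm4d. The cause of this unevenness was not tested.

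**Figure D4:**
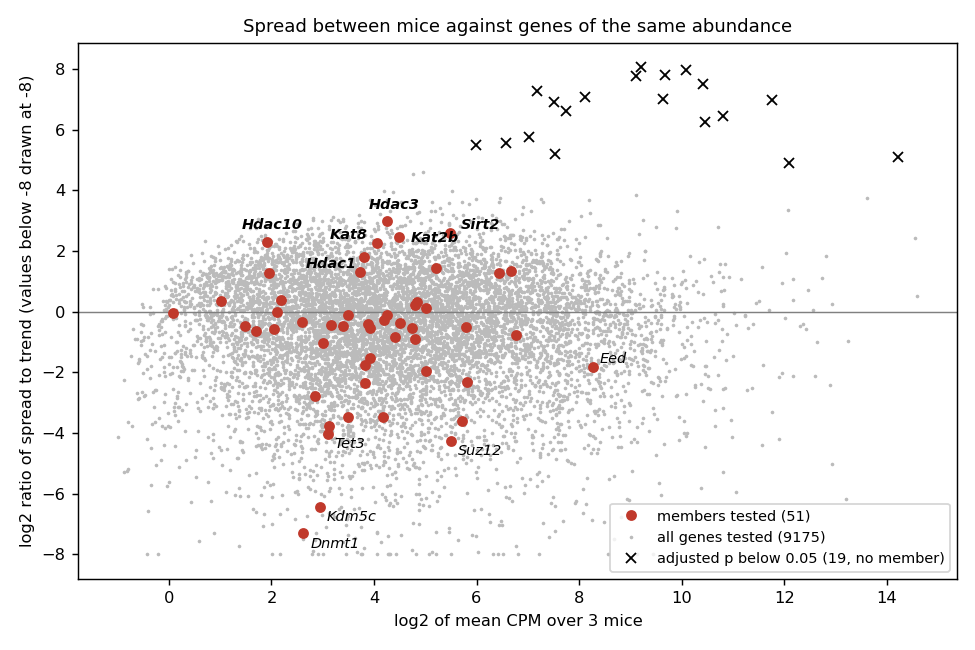
Spread between mice relative to the trend with abundance (log2 ratio) against log2 mean CPM, for 9175 tested genes in grey, 51 members in red and the 19 genes with an adjusted p below 0.05 as crosses. The members lie within the grey cloud, from Dnmt1 at -7.30 to Hdac3 at 2.98, and none is among the crosses.

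Related genes were taken from 10 lists: complex partners, readers of the same marks, further enzymes of the same kinds, and genes of S phase. Among 8 PRC2 partners 6 were detected, with a median of 13.8 ± 2.03 TPM, close to the 11.4 TPM of the core. Rbbp7, a histone-binding protein shared with deacetylase complexes, was highest with 345.6, 346.3 and 384.1 CPM in mice 1, 2 and 3. Epop, at 0.0895 ± 0.155 CPM, was lowest. Of 19 PRC1 genes 11 were detected. Rnf2, its main ubiquitin ligase, led with 219 ± 10.6 CPM, whereas its paralogue Ring1 had 0, 0.796 and 0.0383 CPM and Cbx2 had 0 counts.

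Of 17 DNA methylation partners 15 were detected. Uhrf1, which guides Dnmt1 to newly made DNA, was not detected, with 0.706, 0.91 and 0.0767 CPM in mice 1, 2 and 3. Its paralogue Uhrf2 had 301.8, 233.2 and 202.2 CPM. Gadd45b, linked to active demethylation and to stress responses, was highest with 859.5 ± 89.9 CPM. Of 16 genes of S phase and proliferation 10 were detected, with a median of 2.56 ± 0.455 TPM. Pcna was highest at 194 ± 23.5 CPM, while Mki67 had 0, 5.29 and 5.64 CPM and Ccnb1, the lowest, 0.141 ± 0.244 CPM.

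Deacetylase complexes had 21 of 25 genes detected and a median of 6.60 ± 1.53 TPM. Gps2, of the NCoR complexes, was highest per length at 109 ± 27.8 TPM and Rcor2 had 0 counts. Acetyltransferase complexes had 19 of 25 detected, with Hat1, which acetylates new histones, highest at 315 ± 86.9 CPM and Jade3 at 0 counts. The COMPASS core, the partners of the Kmt2 enzymes, had 9 of 11 detected, with Dpy30 highest (204 ± 51.8 CPM) and Paxip1 lowest per length. Other histone methyltransferases had 22 of 26 detected, with Smyd2 (19.98 TPM) highest and Carm1 (0.284 TPM), which was not detected, lowest. Of the other demethylases 6 of 7 were detected, led by Jmjd6 (12.04 TPM), with Hr at 0 counts. The BET readers of acetylated histones had 3 of 4, with Brd2 at 30.0 ± 1.01 CPM and the testis form Brdt near 0. In these 10 lists 0 genes passed the edgeR test of spread at an adjusted p below 0.05, against 0.207% of all genes tested. At so low a share a count of 0 says little about the lists. Listed genes with low or missing counts in a mouse, such as Nsd2 and Mki67, were not tested.

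**Figure D5:**
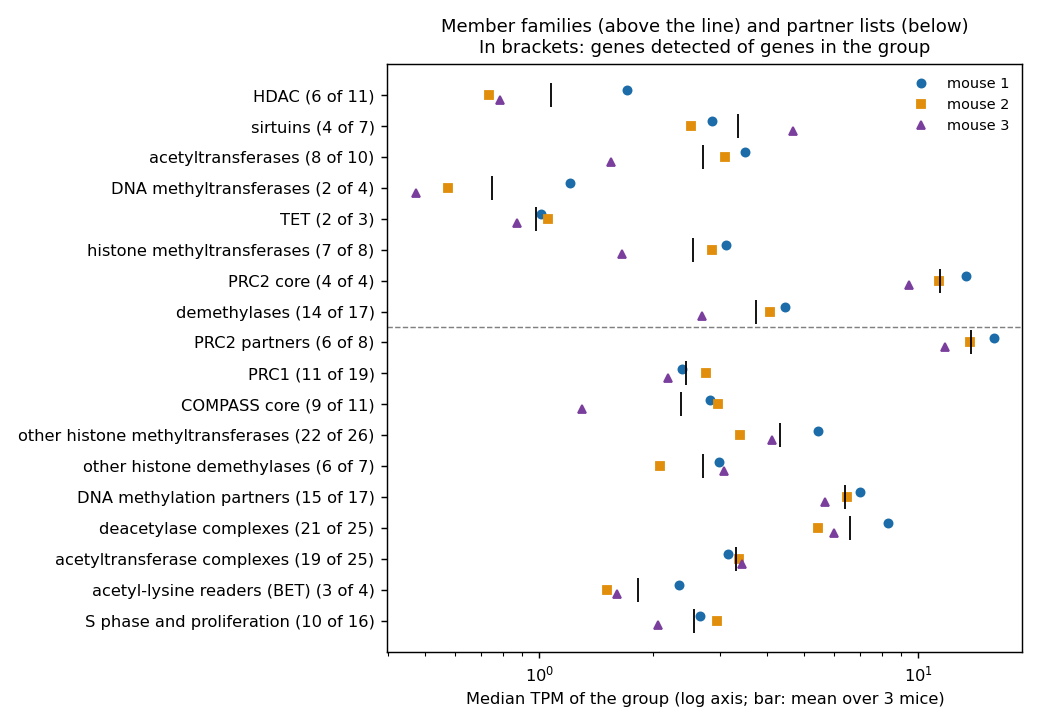
Median TPM of the 8 member families, above the dashed line, and of the 10 partner lists, below it, on a log axis with symbols for the 3 mice and bars for their mean; the numbers of genes detected stand in brackets. The PRC2 core (11.4 TPM) and its partners (13.8 TPM) have the rightmost means, and the DNA methyltransferases (0.751 TPM) and TET genes (0.979 TPM) have the leftmost means.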

How the data were processed

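Total RNA of sorted ILC2s was sequenced after a SMARTer low-input preparation, per the labels' protocols. The authors deposited 1 table of raw counts per Entrez gene. CASAVA 1.8.2, STAR 2.3.0 and mm10 are named in the submitters' processing notes, and the counting program is not given in the sources used here. Replicate numbers follow the labels. No label says how the 3 mice were handled, so p-values measure only the spread between these libraries.

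Of 27179 genes, 25275 were named and 24862 had a GENCODE M21 exon length. From the counts, TMM-scaled CPM, TPM and the variability test (edgeR 4.0.16 in R 4.3.3, quasi-likelihood, filter at 10 counts, Benjamini-Hochberg) were computed, with limma 3.58.1 and DESeq2 1.42.0 as alternatives. The test was checked on simulated data, where it called most very large differences and few moderate ones. Paralogues were compared as log2(TPM + 0.5) within a library by exact sign-flip tests over 19 pairs. Named genes were all members, and the highest and lowest gene per length of each partner list. Ring1, Uhrf2, Mki67 and the T cell, myeloid, NK cell and gut epithelial markers named were chosen after their values were seen. The members and lists were chosen with earlier results of these data known.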

Additional observations from a re-analysis of the deposited data

How the results depend on the processing

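The number of detected members was 47 under no TMM scaling, DESeq2 size factors and removal of immunoglobulin genes, and 49 to 51 when a mouse was left out. At 5 CPM the COMPASS core had 5 and the S phase list 6 genes detected. The count of more variable members was 0 in all 11 alternatives run, which says little about stability in a test that calls few genes. Over all genes the count was 19, but 0 with a robust prior, 1 without immunoglobulin genes and 31 without replicate 1. Family medians, as log2(TPM + 0.5), were 0.60 for HDAC, 1.90 for sirtuin, 1.62 for acetyltransferase, 0.28 for DNA methyltransferase, 0.56 for TET, 1.57 for histone methyltransferase, 3.56 for PRC2 and 2.06 for demethylase genes. In the same order they were 2.73, 3.39, 3.24, 2.08, 3.17, 4.14, 5.02 and 3.77 without division by length, and 0.040, 1.14, 0.88, -0.20, 0.015, 0.84, 2.67 and 1.27 in CPM per kb. As a mean of log2 values HDAC was 1.24, TET 0.45 and PRC2 3.99. With only members at 1 CPM in some library HDAC was 1.22 and TET 1.32. With lengths of the basic annotation sirtuin was 2.91 and TET 0.66. CPM per kb and the basic annotation were chosen after seeing the data. Of the alternative values of pairs 144 kept their direction and 8 turned. Dnmt3a minus Dnmt3b turned to 1.54 without length, 0.16 with a pseudocount of 0.1, 0.22 with the basic annotation, and ranged from -0.79 to 0.78 when a mouse was left out. With the basic annotation Ezh1 minus Ezh2 was -0.67, Sirt7 minus Sirt1 0.96 and Kdm6b minus Kdm6a -0.12. Sirt7 minus Sirt1 ranged from -0.58 to 0.14 when a mouse was left out. The cause of these changes was not tested. No paired analysis was possible because all 3 libraries form a single group and no groups of samples could be paired; the paralogue pairs are genes within a library. Members with few counts in a library, such as Tet1, Dnmt3l and Kdm8, could not be ordered at this depth.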
